A study of Mus musculus with 7 samples.

Results

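The Wnt ligands, their receptors, their extracellular antagonists and the first intracellular steps behind them were examined in mouse lung tumors that overexpress EZH2. The members were chosen by gene symbol: all genes of the Wnt, Fzd, Sfrp, Dkk, Rspo and Axin series, together with Lrp5, Lrp6, Lgr4, Lgr5, Lgr6, Tcf7, Tcf7l1, Tcf7l2, Lef1, Wif1, Porcn, Nkd1, Nkd2, Rnf43, Znrf3 and Ctnnb1. This gave 59 members among the 22447 genes of the files. RNA sequencing had been done on 3 libraries of EZH2-overexpressing (OE) lung tumor, 2 libraries of lung labelled normal from EZH2-overexpressing mice and 2 libraries of wild-type (WT) lung. EZH2 is the enzyme subunit of PRC2, a Polycomb complex that methylates histones and is known to occupy CpG-rich promoters of developmental genes. The promoter behind the transgene, the strain, the age and the animal each library came from remain not given in the sources used here. Hence p-values measure the spread between these libraries alone, and how much of it is technical is not known. The labels name lung tissue as the source while their growth text describes culture of minced nodules, and which of these gave the RNA is not stated.

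Wnt proteins are secreted, lipid-modified signals. In the canonical branch they bring a Frizzled receptor and an Lrp5 or Lrp6 co-receptor together, the Axin scaffold is drawn to the membrane, and β-catenin, the product of Ctnnb1, escapes degradation and joins transcription factors of the Tcf and Lef family on target genes. R-spondins prolong the signal by binding Lgr receptors and drawing the ligases Rnf43 and Znrf3 away from Frizzled, while Sfrp, Dkk and Wif1 proteins block the signal outside the cell. In the lung, Wnt2 and Wnt2b from the mesenchyme specify the organ in the mouse embryo, and Wnt signals sustain alveolar type 2 cells in the adult.

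The targeted gene Ezh2 stood at 8.48, 23.5 and 22.6 FPKM in OE tumors 1, 2 and 3, against 10.2 and 11.5 FPKM in OE normal lungs 1 and 2 and 3.72 and 2.58 FPKM in WT lungs 1 and 2. FPKM are fragments scaled to transcript length and to the mapped fragments of a library, and values below are given in this library order within each group. All 5 OE libraries lay above both WT lungs, and tumor 1 lay below both OE normal lungs. Library-wide totals were 405166 to 503550 summed FPKM, and 12028 to 12625 genes reached 1 FPKM in tumors, against 13203 to 13567 in normal lungs. Tumor 1 stood apart from the other tumors, with a Pearson r across genes of 0.897 and 0.894 with tumors 2 and 3, which had 0.97 with each other. Markers of lung epithelium were present in every library: the summed level of 8 alveolar type 2 markers was 12616 to 43520 FPKM in OE tumors, 12605 to 17311 FPKM in OE normal lungs and 15432 to 19200 FPKM in WT lungs. Among them Sftpc, at 35944 FPKM in tumor 1, was listed at 0 in tumors 2 and 3, so a value of exactly 0 in these files may be a failed estimate, and this gene dominates the sum elsewhere. Of the 8 markers, 6 rose in OE tumors in both tumor comparisons, with a median log2 difference of 1.68 against OE normal lungs and 1.58 against WT lungs. Sex-linked genes also differed within groups: the male-specific Eif2s3y was 30.7, 0.0327 and 0.0295 FPKM in OE tumors, 27.4 and 0.0903 FPKM in OE normal lungs, and 29.8 FPKM in both WT lungs. By this gene each OE group held libraries of both sexes, and tumor 1 was the only male tumor. Both WT lungs were male by Eif2s3y, and tumors 2 and 3 were not, so sex was uneven between tumors and WT lungs. Without tumor 1, a comparison with WT lungs sets female tumors against male lungs. Sex and tumor cannot be told apart there. The part of sex in the differences between tumors, or between groups, was not tested.

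Of the 59 members, 42 reached 1 FPKM in 2 or more of the 7 libraries, the filter used, and were tested, and 17 did not. Of the 42, 11 reached 1 FPKM in no tumor and passed through the normal lungs alone. They were Wnt2, Wnt2b, Wnt3a, Wnt5b, Wnt9a, Wnt10b, Rspo1, Rspo3, Lgr6, Sfrp2 and Lef1. A further 1, Dkk2, reached 1 FPKM in no normal lung, so a difference in these 12 members is partly set by the filter. Differences are on the log2(FPKM + 1) scale, where the change of a weakly expressed gene is understated, and a gene was called at a Benjamini-Hochberg adjusted p under 0.05 in limma. In OE tumors against OE normal lungs, 19 of the 42 members (45.2%) were called, beside 38.1% of all genes tested. Of these, 4 rose (9.52%, beside 13.1% of all genes) and 15 fell (35.7%, beside 24.9% of all genes). Against WT lungs 20 members (47.6%) were called, beside 38.2% of all genes, of which 3 rose (7.14%, beside 15% of all genes) and 17 fell (40.5%, beside 23.2% of all genes). With both directions together the shares called were near those of all genes. The share called lower was above, and the share called higher below, that of all genes, and the filter set part of this. The description below rests on the individual members. The median log2 difference of the tested members was -0.47 against OE normal lungs and -0.58 against WT lungs, beside -0.11 and -0.06 over all genes tested. The 2 tumor comparisons share the same tumor libraries, and 18 members were called in both. Other scalings moved the split: the members called higher and lower than in OE normal lungs numbered 9 and 12 after quantile normalization and 1 and 23 after rescaling to TPM, and those against WT lungs 6 and 15 after quantile normalization. Without tumor 1, 30 members were called against OE normal lungs and 32 against WT lungs, beside 68.8% and 67.5% of all genes. Without OE normal lung 2 there were 11 in the first comparison, and without tumor 2, WT lung 1 or WT lung 2 there were 12, 12 and 10 in the second.

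**Figure D1:**
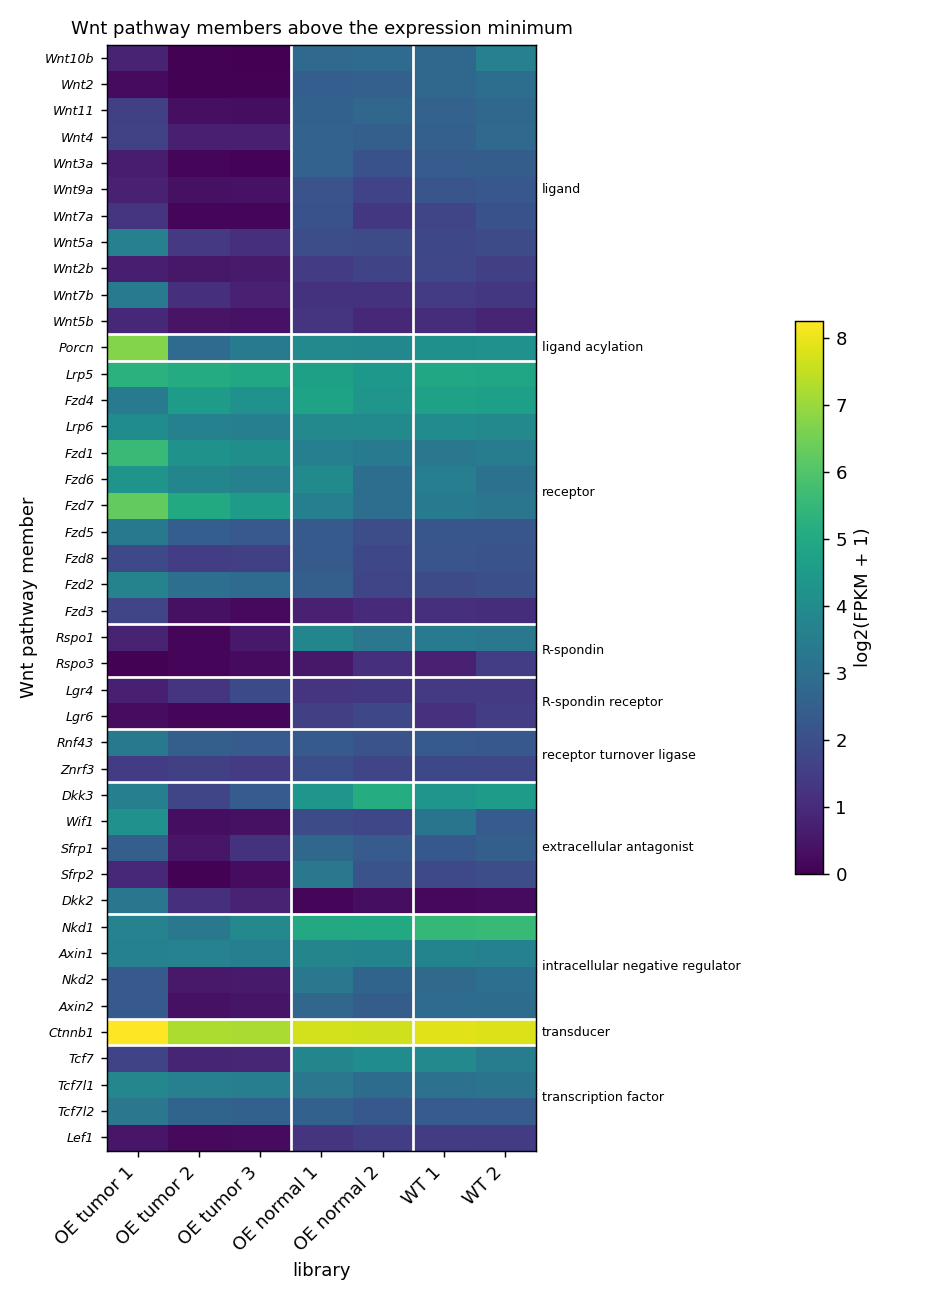
Levels of the tested Wnt pathway members, as log2(FPKM + 1) in each of the 7 libraries, ordered by role. Most ligand rows are dark in the OE tumors and light in the OE normal and WT lungs, tumor 1 is the lightest tumor in most rows, and Fzd7 is lightest in the tumors.

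Most of the tested ligands were lower in the tumors. Of 19 Wnt genes, 11 were tested, and none was called higher. Against OE normal lungs 7 fell (63.6%, beside 24.9% of all genes) and against WT lungs 8 (72.7%, beside 23.2%). Of the 11, 6 had passed the filter through the normal lungs alone, where they are high, so the share that fell is partly set by the filter. The summed level of the 19 ligands was 30.3, 5.11 and 4.19 FPKM in OE tumors, against 41.6 and 36.6 FPKM in OE normal lungs and 39.9 and 48.9 FPKM in WT lungs. Tumor 1 thus lay below the normal lungs by a smaller distance than tumors 2 and 3. The number of ligands at 1 FPKM or more was 5, 2 and 1 in OE tumors, against 12 and 10 in OE normal lungs and 11 and 10 in WT lungs.

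Wnt2, the mesenchymal ligand of the distal lung, had 0.184, 0.0268 and 0.0242 FPKM in OE tumors, against 4.52 and 4.79 FPKM in OE normal lungs and 5.92 and 6.91 FPKM in WT lungs. All 3 tumors were near 0, and no normal lung approached them. The log2 difference was -2.39 (SE 0.14, limma adjusted p = 2.91e-04) against OE normal lungs and -2.78 (SE 0.14, adjusted p = 1.90e-04) against WT lungs. Wnt2b, its close relative, had 0.603, 0.447 and 0.516 FPKM in OE tumors, against 1.76 and 2.25 FPKM in OE normal lungs and 2.40 and 1.95 FPKM in WT lungs. The tumors were close to one another and the groups did not overlap. Wnt2b fell by 0.98 (SE 0.15, adjusted p = 0.00354) and by 1.06 (SE 0.15, adjusted p = 0.00275), and the call against OE normal lungs was lost after quantile normalization (adjusted p = 0.147).

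Wnt10b, a canonical ligand known for restraining fat cell formation, had 0.784, 0.0422 and 0.0114 FPKM in OE tumors, against 6.03 and 6.39 FPKM in OE normal lungs and 5.85 and 11.1 FPKM in WT lungs. It was the most abundant ligand in both OE normal lungs and in WT lung 2, and it was under 1 FPKM in all 3 tumors. Its log2 difference was -2.55 (SE 0.34, adjusted p = 0.00244) and -2.88 (SE 0.34, adjusted p = 0.00159). Wnt3a, a canonical ligand required for the posterior embryo, had 0.566, 0.0805 and 0.0636 FPKM in OE tumors, against 5.09 and 3.20 FPKM in OE normal lungs and 4.23 and 4.38 FPKM in WT lungs. Wnt9a, a ligand of joint and blood stem cell development, had 0.681, 0.280 and 0.327 FPKM in OE tumors, against 3.36 and 2.14 FPKM in OE normal lungs and 3.54 and 3.67 FPKM in WT lungs. Both genes were low in every tumor and overlapped with no normal lung. Wnt3a fell by 2.06 (SE 0.24, adjusted p = 0.00161) and by 2.13 (SE 0.24, adjusted p = 0.00142), and Wnt9a by 1.38 (SE 0.20, adjusted p = 0.00333) and by 1.70 (SE 0.20, adjusted p = 0.00162).

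Wnt3a and Wnt9a are neighbouring genes on chromosome 11 in RefSeq, and they were the pair of adjacent ligand genes that were both tested. Their promoters, 250 bases before to 50 bases after the start, are shown because both fell together and both are dense in CpG dinucleotides, which stand in capitals. The sequences are RefSeq's on GRCm38.p6, not on the build mm9 of the files. Wnt3a lies at chr11:59290702-59291001 on the minus strand with 45 CpG, and Wnt9a at chr11:59306680-59306979 on the plus strand with 58 CpG, the highest number among the members.
Wnt3a: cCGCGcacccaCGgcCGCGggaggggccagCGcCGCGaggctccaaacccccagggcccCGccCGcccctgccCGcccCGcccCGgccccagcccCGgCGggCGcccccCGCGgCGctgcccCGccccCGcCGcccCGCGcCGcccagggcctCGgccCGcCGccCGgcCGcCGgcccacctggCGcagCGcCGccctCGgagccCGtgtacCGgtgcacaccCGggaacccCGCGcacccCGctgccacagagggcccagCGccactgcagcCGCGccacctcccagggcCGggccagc
Wnt9a: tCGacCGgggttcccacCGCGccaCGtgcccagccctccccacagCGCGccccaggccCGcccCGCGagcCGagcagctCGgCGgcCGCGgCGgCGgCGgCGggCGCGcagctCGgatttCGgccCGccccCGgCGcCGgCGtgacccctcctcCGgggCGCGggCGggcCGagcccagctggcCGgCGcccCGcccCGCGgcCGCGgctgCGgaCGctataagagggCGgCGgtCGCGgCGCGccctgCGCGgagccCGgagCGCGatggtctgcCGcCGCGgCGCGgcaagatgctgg
RefSeq promoters were matched for 39 of the 59 members. With 1 promoter per gene, that with the most CpG, the members had a median of 29 CpG in 300 bases and a range of 6 to 58, beside a median of 15 over 17492 protein-coding genes counted in the same way. The 28 tested members with a promoter had a median of 30 and the 11 under the filter a median of 26, so CpG-dense promoters occurred in both. CpG numbers were not compared between members that fell, rose or were not called, and their part in the falls was not tested.

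Wnt11, which mostly acts through β-catenin-independent signalling, had 1.98, 0.251 and 0.233 FPKM in OE tumors, against 4.94 and 5.55 FPKM in OE normal lungs and 5.0 and 5.97 FPKM in WT lungs. Wnt4, known for kidney and ovary development, had 2.05, 0.663 and 0.668 FPKM in OE tumors, against 5.07 and 4.64 FPKM in OE normal lungs and 4.73 and 6.10 FPKM in WT lungs. In both genes tumor 1 was intermediate, and no tumor reached a normal lung. Wnt11 fell by 1.91 (SE 0.40, adjusted p = 0.0127) and by 1.96 (SE 0.40, adjusted p = 0.0118), and Wnt4 by 1.52 (SE 0.30, adjusted p = 0.00967) and by 1.65 (SE 0.30, adjusted p = 0.00750). The Wnt11 calls were lost without OE normal lung 1 or 2 (adjusted p = 0.0662 and 0.0812) and without WT lung 1 or 2 (0.0592 and 0.0837). Those of Wnt4 were lost without OE normal lung 1 or 2 (0.0658 and 0.0567) and without WT lung 2 (0.0653). Wnt7a, the dorsal ligand of the limb, had 1.43, 0.109 and 0.0857 FPKM in OE tumors, against 3.22 and 1.55 FPKM in OE normal lungs and 2.31 and 3.19 FPKM in WT lungs. Tumor 1 came close to OE normal lung 2, and tumors 2 and 3 were far lower. The difference was -1.20 (SE 0.42, adjusted p = 0.0663) against OE normal lungs and -1.38 (SE 0.42, adjusted p = 0.0433) against WT lungs, and the call against WT lungs was lost when any library other than tumor 1 was left out (adjusted p = 0.0581 to 0.208). Without tumor 1 Wnt7a also fell against OE normal lungs, by 1.58 (adjusted p = 0.00354).

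**Figure D2:**
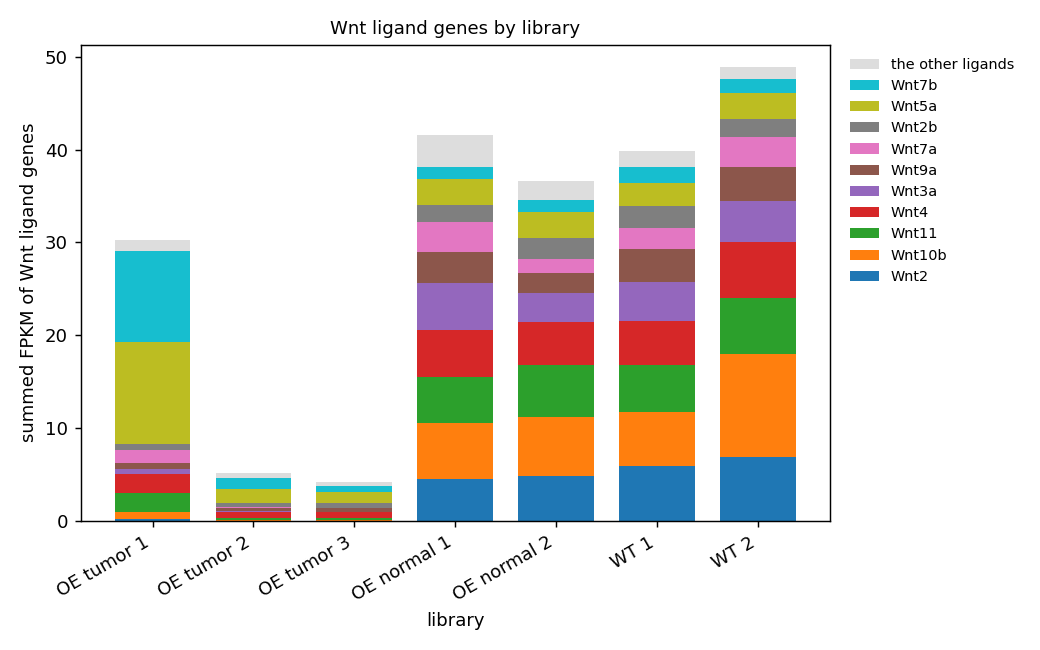
Summed FPKM of the 19 Wnt ligand genes in each library, split by ligand. The OE tumors reach 30.3, 5.11 and 4.19 FPKM, and the normal lungs 36.6 to 48.9 FPKM, with Wnt5a the highest ligand in all 3 tumors.

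The 3 other tested ligands were called in neither comparison. Wnt5a, the main β-catenin-independent ligand of lung branching, had 11.0, 1.57 and 1.16 FPKM in OE tumors, against 2.86 and 2.75 FPKM in OE normal lungs and 2.46 and 2.81 FPKM in WT lungs. Wnt7b, an epithelial ligand of the developing lung, had 9.72, 1.19 and 0.680 FPKM in OE tumors, against 1.31 and 1.30 FPKM in OE normal lungs and 1.69 and 1.55 FPKM in WT lungs. For both genes tumor 1 was the highest of all 7 libraries and tumors 2 and 3 were the lowest. The log2 differences were 0.09 (SE 0.72, adjusted p = 0.930) and 0.16 (SE 0.72, adjusted p = 0.878) for Wnt5a, and 0.56 (SE 0.76, adjusted p = 0.588) and 0.38 (SE 0.76, adjusted p = 0.720) for Wnt7b. Without tumor 1 Wnt5a fell by 0.69 (adjusted p = 0.00505) and by 0.63 (adjusted p = 0.00763), and Wnt7b fell by 0.45 against WT lungs (adjusted p = 0.0457). Wnt5a took 36.5%, 30.6% and 27.6% of the summed ligand level in the tumors, where it was the highest ligand each time. Wnt7b and AU022754, a gene on the opposite strand, share 236 exon bases in GENCODE M21, and since the strand setting of the counting is not given their reads cannot be told apart. AU022754 itself was at 1.05, 0.117 and 0.138 FPKM in OE tumors, against 0.513 and 0.653 FPKM in OE normal lungs and 0.435 and 0.652 FPKM in WT lungs. Wnt5b stayed between 0.331 and 1.35 FPKM in all libraries and was not called, but without tumor 1 it fell by 0.66 (adjusted p = 0.0120) and by 0.55 (adjusted p = 0.0236).

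The 8 ligands under the filter were Wnt1, Wnt3, Wnt6, Wnt8a, Wnt8b, Wnt9b, Wnt10a and Wnt16. Wnt6 was the highest of them, with 0.0472, 0.0275 and 0 FPKM in OE tumors, against 1.52 and 0.303 FPKM in OE normal lungs and 0.226 and 0.0920 FPKM in WT lungs. All of its tumor values lay under its normal values, without a test. Wnt8a was listed at 0 in all 3 tumors and in OE normal lung 2. Wnt1, next to Wnt10b on chromosome 15, reached no more than 0.0185 FPKM in any library.

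Porcn, the acyltransferase of the endoplasmic reticulum that attaches the lipid Wnt proteins need for secretion, differed widely among the tumors. It had 105, 6.37 and 9.43 FPKM in OE tumors, against 13.7 and 13.4 FPKM in OE normal lungs and 16.4 and 17.1 FPKM in WT lungs. Tumor 1 was far above all normal lungs, and tumors 2 and 3 were below them. The differences were 0.46 (SE 1.09, adjusted p = 0.759) and 0.18 (SE 1.09, adjusted p = 0.910). Without tumor 1 Porcn fell by 0.73 (adjusted p = 0.0114) against OE normal lungs and by 1.02 (adjusted p = 0.00347) against WT lungs. Porcn lies on chromosome X, and tumor 1 was the only male tumor. The part of sex in its levels was not tested.

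Many markers of other cell types were also lower in the tumors. Those of macrophages were not: of 6 tested, 0 were called against OE normal lungs, and 2 rose and 0 fell against WT lungs. All 8 endothelial markers fell in OE tumors against OE normal lungs, with summed levels of 86.4 to 115 FPKM in OE tumors, 1207 to 1329 FPKM in OE normal lungs and 1398 to 1675 FPKM in WT lungs. All 4 tested mesothelial markers fell in that comparison, with 0.208 to 8.23 FPKM in OE tumors, 58.0 to 106 FPKM in OE normal lungs and 59.0 to 110 FPKM in WT lungs. Of 7 fibroblast markers 3 fell in each tumor comparison, and their sum was 402, 74.0 and 101 FPKM in OE tumors, 503 and 654 FPKM in OE normal lungs and 493 and 635 FPKM in WT lungs. Of 6 smooth muscle and pericyte markers 4 fell in each, and their sum was 383, 62.2 and 86.5 FPKM in OE tumors, 251 and 258 FPKM in OE normal lungs and 357 and 484 FPKM in WT lungs. The fibroblast and smooth muscle sums were thus highest in tumor 1 among the tumors, as was the ligand sum. In the smooth muscle sum Acta2 alone gave 313 of the 383 FPKM of tumor 1. Myh11 went the other way, with 1.92, 2.15 and 3.25 FPKM in OE tumors. The part of these cell types in the ligand levels was not tested, and in bulk samples fewer cells of a type and less RNA per cell cannot be told apart. None of these markers was listed at 0.

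Among the receptors, 10 of 12 were tested, with none called lower. Fzd7, Fzd2 and Lrp5 rose against OE normal lungs (30%, beside 13.1% of all genes). Fzd7 and Fzd2 rose against WT lungs (20%, beside 15% of all genes). Summed receptor levels were 229, 142 and 119 FPKM in OE tumors, against 114 and 85.4 FPKM in OE normal lungs and 109 and 103 FPKM in WT lungs. Every tumor lay above every normal lung, but tumor 3 only narrowly above OE normal lung 1. The summed FPKM of all genes was 466289 in tumor 3 and 405166 in OE normal lung 1. Scaled to these totals, the receptor sum of tumor 3 is no longer the higher of the pair. Beside the rises of these receptors, 6 of 8 alveolar type 2 markers rose in both comparisons. Among them was Sftpb, at 2664, 6954 and 6779 FPKM in OE tumors, against 1325 and 749 FPKM in OE normal lungs and 1386 and 1096 FPKM in WT lungs. Sftpb was thus lowest in tumor 1 among the tumors, as were Sftpa1, Lamp3 and Slc34a2. Sftpd and Abca3, which also rose, were highest in tumor 1. Sftpd had 2453, 1383 and 1449 FPKM in OE tumors, and Abca3 had 148, 130 and 126 FPKM. The 2 markers not called were Sftpc and Napsa, and Napsa had 43.2, 228 and 313 FPKM in OE tumors, 163 and 147 FPKM in OE normal lungs and 182 and 110 FPKM in WT lungs. The part of alveolar type 2 cells in the receptor levels was not tested. Fzd7, a receptor known for canonical signalling in stem cells, had 76.2, 31.4 and 22.0 FPKM in OE tumors, against 10.7 and 6.94 FPKM in OE normal lungs and 9.29 and 8.40 FPKM in WT lungs. The lowest tumor was above the highest normal lung, and tumor 1 was the highest. Fzd7 had log2 differences of 2.00 (SE 0.50, adjusted p = 0.0232) and 1.97 (SE 0.50, adjusted p = 0.0247). Its calls were lost without OE normal lung 1 or 2 (adjusted p = 0.0738 and 0.142), without tumor 2 (0.0501, against WT lungs), without WT lung 1 or 2 (0.106 and 0.129) and with no filter on low values (0.0617 and 0.0659).

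Fzd2, a close relative of Fzd7 and Fzd1, had 11.8, 7.00 and 6.40 FPKM in OE tumors, against 4.62 and 2.27 FPKM in OE normal lungs and 2.68 and 3.00 FPKM in WT lungs. Fzd1 had 47.2, 17.9 and 16.3 FPKM in OE tumors, against 10.8 and 9.27 FPKM in OE normal lungs and 8.92 and 10.3 FPKM in WT lungs. In both genes every tumor was above every normal lung. Fzd2 rose by 1.09 (SE 0.32, adjusted p = 0.0402) and by 1.25 (SE 0.32, adjusted p = 0.0259), while the differences of Fzd1 were 1.19 (SE 0.44, adjusted p = 0.0803) and 1.24 (SE 0.44, adjusted p = 0.0704). Without tumor 1 Fzd1 passed the test as well, at 0.71 (adjusted p = 0.00304) and 0.77 (adjusted p = 0.00237), and it also passed after median-of-ratios scaling (0.0384 and 0.0390). The Fzd2 call against OE normal lungs was lost under 8 of 16 alternatives. Without OE normal lung 2 its difference was 0.70 (adjusted p = 0.225), and without tumor 2, tumor 3, WT lung 1 or WT lung 2 the adjusted p was 0.0707, 0.0543, 0.0757 and 0.0758. Against WT lungs it was lost without tumor 2 (0.0507), WT lung 1 (0.134) or WT lung 2 (0.113).

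The Fzd7 promoter is printed as that of the receptor with the largest rise, and the Wnt11 promoter as that of a lowered ligand, because each holds a match to a Tcf and Lef motif, in capitals. The motifs searched, on both strands, were CTTTGAA and also CTTTGAT, with the variants CTTTGTT and also CTTTGTA. Relative to the start the match begins at -130 in Fzd7, whose promoter is chr1:59481897-59482196 on the plus strand. It begins at -51 in Wnt11, at chr7:98834862-98835161 on the plus strand, and both sequences are RefSeq's on GRCm38.p6. A match describes the letters and does not show binding.
Fzd7: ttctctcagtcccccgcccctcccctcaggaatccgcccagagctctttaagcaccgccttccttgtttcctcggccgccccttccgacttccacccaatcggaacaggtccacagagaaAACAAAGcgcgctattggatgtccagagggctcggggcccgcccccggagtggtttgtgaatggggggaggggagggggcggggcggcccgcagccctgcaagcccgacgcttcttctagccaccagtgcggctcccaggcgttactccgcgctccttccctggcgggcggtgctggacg
Wnt11: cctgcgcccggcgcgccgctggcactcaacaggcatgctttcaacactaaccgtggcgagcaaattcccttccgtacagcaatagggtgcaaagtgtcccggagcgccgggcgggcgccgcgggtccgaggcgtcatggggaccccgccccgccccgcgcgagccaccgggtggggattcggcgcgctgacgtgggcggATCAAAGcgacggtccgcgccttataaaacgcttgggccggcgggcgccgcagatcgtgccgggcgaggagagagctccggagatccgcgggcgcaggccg
Of 49 member promoters, 7 held a match (14.3%), beside 16.9% of the 32851 promoters in the RefSeq table. The other members with a match were Lef1, Tcf7l2, Wnt3, Wnt5b and Dkk1.

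Lrp5, one of the co-receptors, had 37.5, 32.6 and 29.3 FPKM in OE tumors, against 24.7 and 20.3 FPKM in OE normal lungs and 29.3 and 28.0 FPKM in WT lungs. The tumors were above the OE normal lungs and only slightly above the WT lungs. It rose by 0.54 (SE 0.15, adjusted p = 0.0320) against OE normal lungs, a call lost under 8 of 16 alternatives, among them every omission of a library other than tumor 1 or tumor 3 (adjusted p = 0.0592 to 0.188). Against WT lungs the difference was 0.20 (SE 0.15, adjusted p = 0.329). Lrp6, the other co-receptor, had 15.0, 11.4 and 10.9 FPKM in OE tumors, against 13.9 and 14.4 FPKM in OE normal lungs and 14.8 and 13.6 FPKM in WT lungs. It was not called, and without tumor 1 it fell by 0.32 (adjusted p = 0.0145) and by 0.33 (adjusted p = 0.0140).

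Fzd4, the Norrin receptor of blood vessels, had 9.40, 22.4 and 16.9 FPKM in OE tumors, against 26.3 and 18.7 FPKM in OE normal lungs and 25.2 and 24.0 FPKM in WT lungs. It was 1 of 3 tested members that were lowest in tumor 1 among the tumors, beside Lgr4 and Rspo3. Its differences were -0.51 (SE 0.35, adjusted p = 0.287) and -0.65 (SE 0.35, adjusted p = 0.185). Fzd5 had 8.98, 4.55 and 3.94 FPKM in OE tumors, against 4.02 and 2.90 FPKM in OE normal lungs and 3.64 and 3.67 FPKM in WT lungs. Fzd6, known for its part in tissue polarity of the mouse skin, had 18.3, 12.7 and 11.0 FPKM in OE tumors, against 14.4 and 6.90 FPKM in OE normal lungs and 10.6 and 7.67 FPKM in WT lungs. Both overlapped with OE normal lung 1 and neither was called. Fzd3 and Fzd8 ranged from 0.162 to 4.09 FPKM and were not called, and Fzd9 and Fzd10 stayed under 0.114 FPKM in all libraries. Without tumor 1 Fzd3 passed the test, with -0.60 (adjusted p = 0.0132) and -0.83 (adjusted p = 0.00408), and Fzd8 against WT lungs, with -0.61 (adjusted p = 0.0360).

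**Figure D3:**
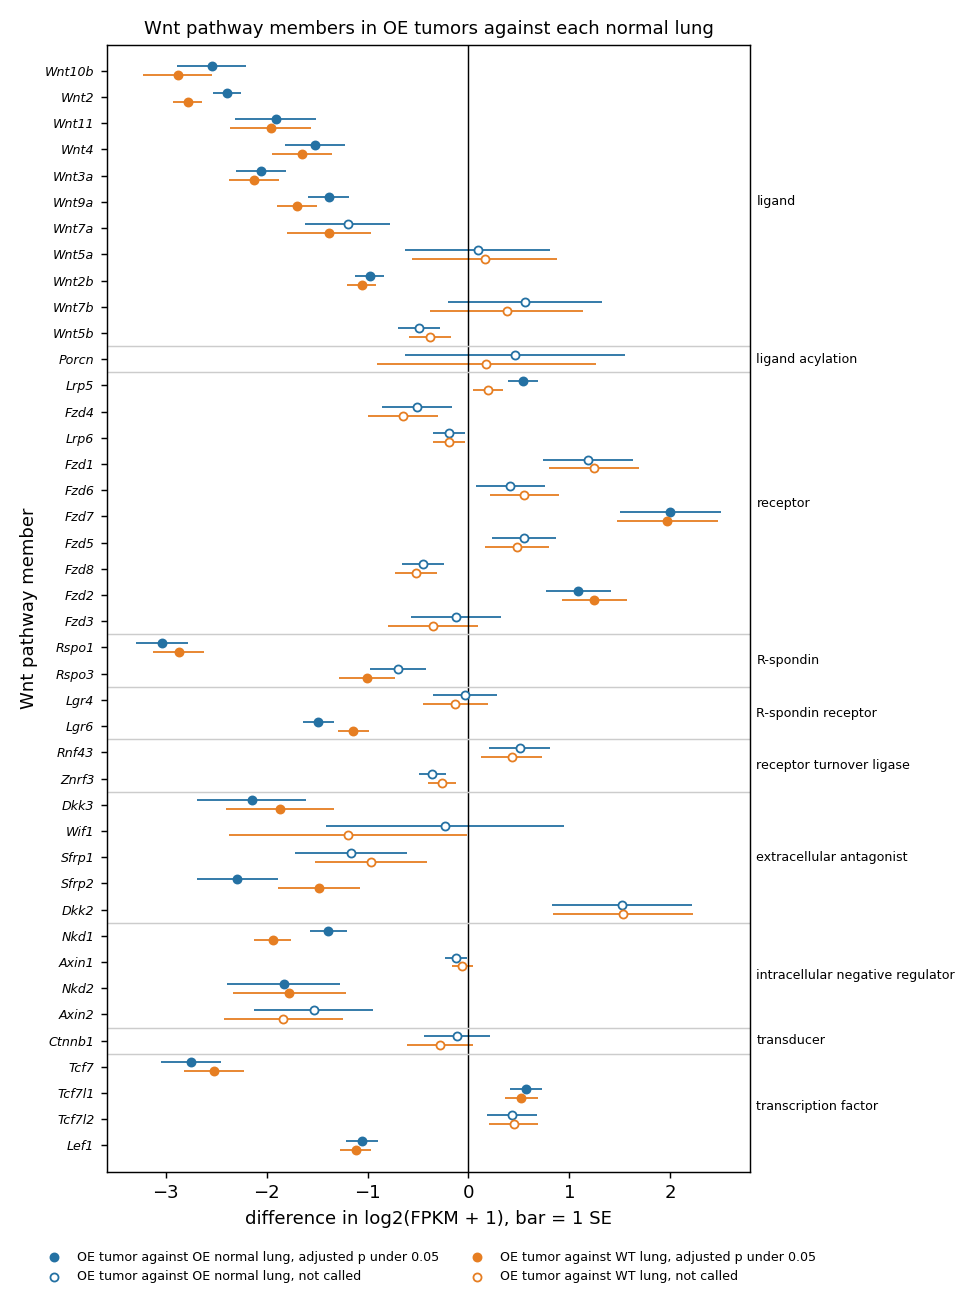
Log2 differences of log2(FPKM + 1), with SE, for the tested members by role, in OE tumors against OE normal lungs and against WT lungs. Filled points were called at an adjusted p under 0.05. The called ligands, R-spondins and antagonists lie left of 0 and Fzd7 and Fzd2 lie right of it.

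Of the R-spondins, Rspo1 had the largest difference of the tested members against OE normal lungs on the log2(FPKM + 1) scale. Across the alternatives Wnt2 and Wnt10b reached -4.85 and -4.71, beyond the -4.58 of Rspo1, so this rank depends on the processing. Rspo1 had 0.719, 0.0837 and 0.481 FPKM in OE tumors, against 12.9 and 8.57 FPKM in OE normal lungs and 9.67 and 8.87 FPKM in WT lungs. No tumor reached 1 FPKM, and no normal lung was under 8.57 FPKM. Rspo1 fell by 3.04 (SE 0.25, adjusted p = 5.14e-04) against OE normal lungs and by 2.87 (SE 0.25, adjusted p = 5.80e-04) against WT lungs. Rspo3, an R-spondin of vessels and mesenchyme, had 0.0402, 0.0701 and 0.179 FPKM in OE tumors, against 0.436 and 1.20 FPKM in OE normal lungs and 0.706 and 1.83 FPKM in WT lungs. All tumors were lower, with wide spread between normal lungs of one group. The difference was -0.70 (SE 0.28, adjusted p = 0.0934) and -1.01 (SE 0.28, adjusted p = 0.0324), and the call against WT lungs was lost without tumor 2 or 3 (adjusted p = 0.0843 and 0.0690). Rspo2 and Rspo4 stayed at or under 0.406 FPKM in every library.

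Lgr6, an R-spondin receptor of epithelial stem cells, had 0.207, 0.115 and 0.115 FPKM in OE tumors, against 1.97 and 2.48 FPKM in OE normal lungs and 1.27 and 1.81 FPKM in WT lungs. The tumors were alike and under every normal lung. Lgr6 fell by 1.49 (SE 0.16, adjusted p = 0.00104) and by 1.14 (SE 0.16, adjusted p = 0.00266). Lgr5, the intestinal stem cell receptor, was under the filter and stood at 1.69, 0.802 and 0.699 FPKM in OE tumors, against 0.487 and 0.311 FPKM in OE normal lungs and 0.542 and 0.392 FPKM in WT lungs. Lgr4 lay between 0.638 and 2.61 FPKM in all libraries and its tumors spanned the normal lungs. The ligase Rnf43, which removes Frizzled from the membrane, had 9.08, 4.61 and 4.18 FPKM in OE tumors, against 4.09 and 3.28 FPKM in OE normal lungs and 4.08 and 3.79 FPKM in WT lungs. Its tumors were above all normal lungs by a narrow margin in tumors 2 and 3, and it was not called (0.51, SE 0.30, adjusted p = 0.228, and 0.43, SE 0.30, adjusted p = 0.302). Znrf3, its paralog, ranged from 1.77 to 1.96 FPKM in OE tumors, 2.33 to 2.97 FPKM in OE normal lungs and 2.34 to 2.46 FPKM in WT lungs, and was not called.

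Of the 9 extracellular antagonists 5 were tested, and Dkk3 and Sfrp2 fell in both comparisons (40%, beside 24.9% and 23.2% of all genes). Summed antagonist levels were 42.2, 4.32 and 7.02 FPKM in OE tumors, against 38.7 and 45.3 FPKM in OE normal lungs and 34.8 and 35.9 FPKM in WT lungs. Tumor 1 lay within the normal range and tumors 2 and 3 far below it. Dkk3, a divergent Dkk protein whose block of Wnt signalling is disputed, had 10.9, 2.34 and 4.28 FPKM in OE tumors, against 19.3 and 33.3 FPKM in OE normal lungs and 18.8 and 22.8 FPKM in WT lungs. Every tumor was below every normal lung. Dkk3 fell by 2.15 (SE 0.54, adjusted p = 0.0227) and by 1.87 (SE 0.54, adjusted p = 0.0364). The first call was lost without tumor 3, OE normal lung 1 or OE normal lung 2 (adjusted p = 0.0657, 0.0623 and 0.144), and the second when any library other than tumor 1 was left out (0.0572 to 0.174).

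Sfrp2, a secreted Frizzled-like protein of fibroblasts, had 0.881, 0.0380 and 0.218 FPKM in OE tumors, against 8.88 and 3.31 FPKM in OE normal lungs and 2.57 and 2.87 FPKM in WT lungs. OE normal lung 1 was the highest library, and no tumor reached 1 FPKM. It fell by 2.29 (SE 0.41, adjusted p = 0.00663) and by 1.48 (SE 0.41, adjusted p = 0.0317), and the call against WT lungs was lost without tumor 2, tumor 3, WT lung 1 or WT lung 2 (adjusted p = 0.0864, 0.0864, 0.123 and 0.152). Sfrp1 had 4.68, 0.421 and 1.32 FPKM in OE tumors, against 5.92 and 4.12 FPKM in OE normal lungs and 3.78 and 4.60 FPKM in WT lungs. Tumor 1 was within the normal range, and the difference of -1.16 (SE 0.55, adjusted p = 0.146) was not called. Without tumor 1 Sfrp1 fell by 1.71 (adjusted p = 0.00311) and by 1.51 (adjusted p = 0.00513).

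Wif1, a secreted inhibitor that binds Wnt proteins, had 17.1, 0.235 and 0.283 FPKM in OE tumors, against 2.81 and 2.40 FPKM in OE normal lungs and 8.30 and 4.28 FPKM in WT lungs. Tumor 1 was the highest library and stood 60.3 times above the higher of tumors 2 and 3, the largest such ratio of the tested members. The differences of -0.23 (SE 1.18, adjusted p = 0.890) and -1.20 (SE 1.18, adjusted p = 0.455) were not called. Without tumor 1 Wif1 fell by 1.52 (adjusted p = 0.00454) and by 2.48 (adjusted p = 0.000775). Dkk2 had 8.49, 1.23 and 0.775 FPKM in OE tumors, against 0.106 and 0.235 FPKM in OE normal lungs and 0.135 and 0.180 FPKM in WT lungs. Each tumor was above each normal lung, with tumor 1 far above the others, and Dkk2 was not called (1.52, SE 0.69, adjusted p = 0.132, and 1.53, SE 0.69, adjusted p = 0.129). Sfrp4 and Sfrp5, under the filter, were at 0.0101 to 0.0889 FPKM in OE tumors, 0.660 to 1.08 FPKM in OE normal lungs and 0.441 to 0.631 FPKM in WT lungs. Dkk1 did not exceed 0.133 FPKM and Dkk4 was listed at 0 in all 7 libraries.

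Of 4 negative regulators within the cell, Nkd1 and Nkd2 fell in both comparisons (50%, beside 24.9% and 23.2% of all genes). Nkd1, which binds Dishevelled, had 11.5, 8.82 and 13.7 FPKM in OE tumors, against 30.4 and 31.3 FPKM in OE normal lungs and 44.5 and 46.9 FPKM in WT lungs. The groups formed 3 separate steps, with the WT lungs highest. Nkd1 fell by 1.39 (SE 0.18, adjusted p = 0.00225) against OE normal lungs and by 1.94 (SE 0.18, adjusted p = 7.04e-04) against WT lungs. Nkd2, its paralog, had 3.98, 0.482 and 0.522 FPKM in OE tumors, against 8.96 and 5.36 FPKM in OE normal lungs and 6.21 and 7.15 FPKM in WT lungs. Tumor 1 came nearer to the normal lungs than the other tumors. Nkd2 had differences of -1.83 (SE 0.56, adjusted p = 0.0445) and -1.78 (SE 0.56, adjusted p = 0.0488), and each call was lost under 11 of 16 alternatives, among them every omission of a library other than tumor 1 (adjusted p = 0.0767 to 0.221).

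Axin2, the inducible scaffold widely used as a readout of β-catenin signalling, had 4.03, 0.287 and 0.383 FPKM in OE tumors, against 5.64 and 4.43 FPKM in OE normal lungs and 6.33 and 6.46 FPKM in WT lungs. Tumor 1 lay just under the normal lungs and tumors 2 and 3 far under them. The differences were -1.53 (SE 0.59, adjusted p = 0.0871) and -1.83 (SE 0.59, adjusted p = 0.0526), which did not pass the test. Without tumor 1 Axin2 fell by 2.17 (adjusted p = 0.000131) and by 2.47 (adjusted p = 8.56e-05). Axin1, the constitutive scaffold, had 11.4, 11.6 and 10.8 FPKM in OE tumors, against 12.5 and 12.3 FPKM in OE normal lungs and 12.2 and 11.3 FPKM in WT lungs. Its differences of -0.13 (SE 0.11, adjusted p = 0.388) and -0.06 (SE 0.11, adjusted p = 0.685) were not called, and it passed against OE normal lungs after rescaling to TPM (-0.35, adjusted p = 0.0446). Ctnnb1 had 303, 150 and 145 FPKM in OE tumors, against 205 and 202 FPKM in OE normal lungs and 233 and 223 FPKM in WT lungs. Tumor 1 was above and tumors 2 and 3 were below all normal lungs, and the transcript was not called (-0.12, SE 0.33, adjusted p = 0.797, and -0.28, SE 0.33, adjusted p = 0.526). Without tumor 1 Ctnnb1 fell by 0.46 (adjusted p = 0.00281) and by 0.63 (adjusted p = 0.000959).

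The transcription factors split by gene. Tcf7, the factor of T cell development and of canonical targets, had 2.22, 0.811 and 0.846 FPKM in OE tumors, against 12.7 and 15.0 FPKM in OE normal lungs and 13.6 and 9.97 FPKM in WT lungs. Lef1, also a lymphoid factor, had 0.417, 0.167 and 0.185 FPKM in OE tumors, against 1.37 and 1.85 FPKM in OE normal lungs and 1.68 and 1.76 FPKM in WT lungs. Neither gene overlapped between tumors and normal lungs. Tcf7 fell by 2.75 (SE 0.30, adjusted p = 0.00117) and by 2.52 (SE 0.30, adjusted p = 0.00157), and Lef1 by 1.05 (SE 0.16, adjusted p = 0.00348) and by 1.12 (SE 0.16, adjusted p = 0.00291). The Lef1 call against OE normal lungs was lost after quantile normalization (adjusted p = 0.118). Of 6 T cell markers, 6 fell against OE normal lungs and 3 against WT lungs, with summed levels of 5.48 to 14.1 FPKM in OE tumors, 45.4 to 87.5 FPKM in OE normal lungs and 18.4 to 32.3 FPKM in WT lungs, and none was listed at 0. The part of T cells in the levels of Tcf7 and Lef1 was not tested.

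Tcf7l1, known mainly as a repressor of Wnt targets, had 13.1, 11.2 and 10.5 FPKM in OE tumors, against 8.57 and 6.47 FPKM in OE normal lungs and 7.51 and 7.95 FPKM in WT lungs. Every tumor was above every normal lung. Its differences were 0.57 (SE 0.16, adjusted p = 0.0351) and 0.52 (SE 0.16, adjusted p = 0.0455). These calls were lost under 8 and 10 of 16 alternatives, with adjusted p of 0.0608 to 0.205 against OE normal lungs without tumor 2, tumor 3, OE normal lung 2 or either WT lung, and of up to 0.214 against WT lungs, where the call was lost when any library other than tumor 1 was left out. Tcf7l1 shares 84 exon bases in GENCODE M21 with Gm15401 on the opposite strand, which was at 2.85, 12.9 and 11.5 FPKM in OE tumors, against 1.27 and 1.04 FPKM in OE normal lungs and 0.863 and 0.892 FPKM in WT lungs, and the reads of the shared bases cannot be told apart. Tcf7l2 had 8.72, 5.36 and 4.88 FPKM in OE tumors, against 4.88 and 3.78 FPKM in OE normal lungs and 4.22 and 4.23 FPKM in WT lungs. Tumor 3 and OE normal lung 1 were nearly equal, and the differences of 0.43 (SE 0.24, adjusted p = 0.210) and 0.45 (SE 0.24, adjusted p = 0.192) were not called.

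**Figure D4:**
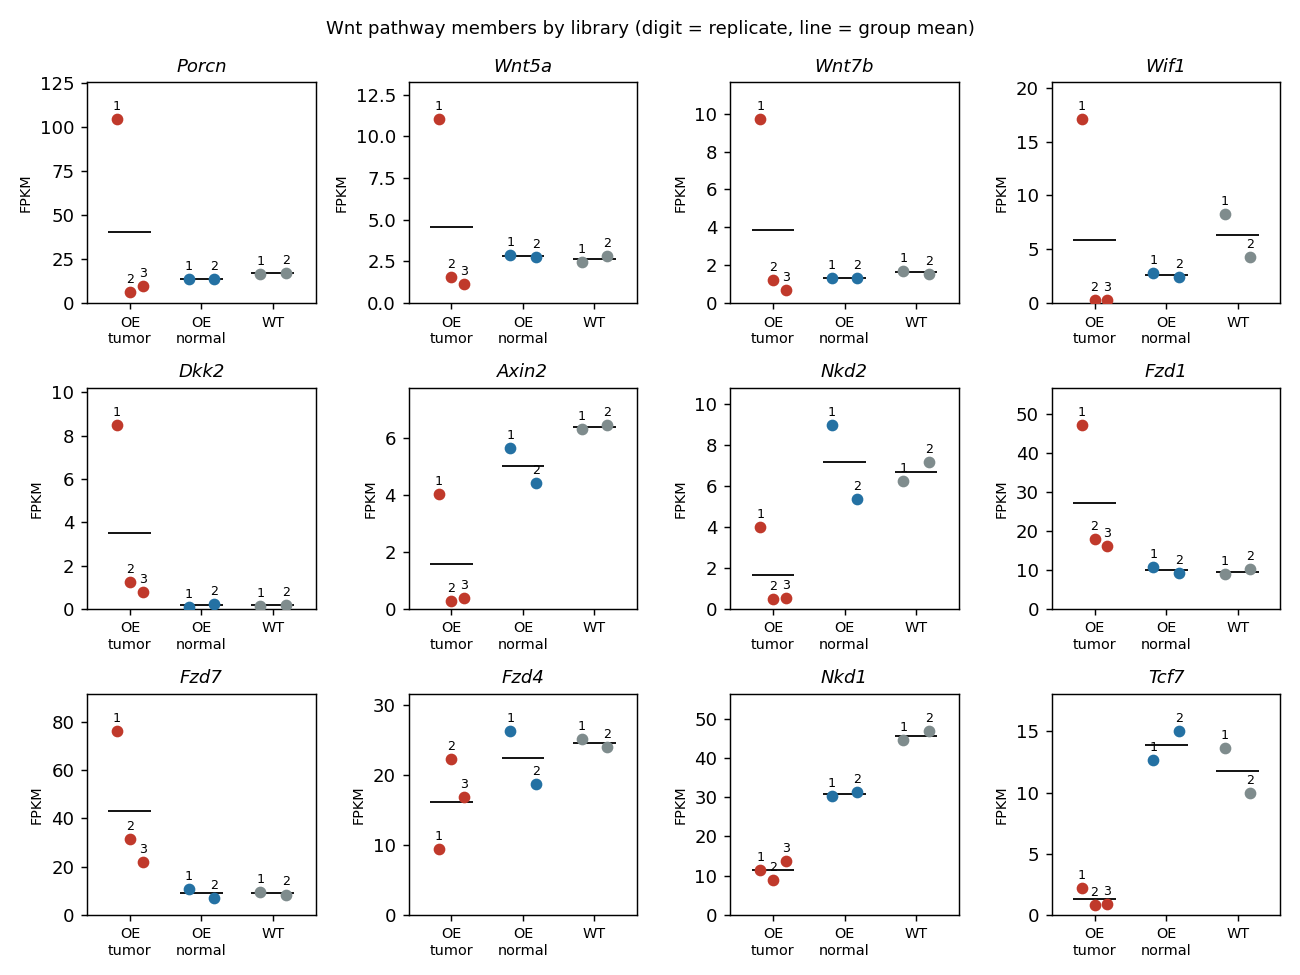
FPKM per library of 12 members, on linear axes that start at 0, with the 3 OE tumors, 2 OE normal lungs and 2 WT lungs as points numbered by replicate and a line at each group mean. For Porcn and Wif1 tumor 1 is above and tumors 2 and 3 are below the normal lungs, for Fzd7 all tumors are above them, and for Nkd1 and Tcf7 all tumors are below them.

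Tumor 1 was the highest tumor for 36 of the 42 tested members (85.7%), beside 55.3% of all genes tested. In 16 members (38.1%) it was at least 3 times above either other tumor, beside 7.04% of all genes. Among them Wnt2, Wnt3a, Wnt10b and Sfrp2 were under 1 FPKM in every tumor and had passed the filter through the normal lungs alone. Their ratios compare values near the floor, so the filter may set part of this share. The ratios to the higher of tumors 2 and 3 were 60.3 for Wif1, 18.6 for Wnt10b, 13.0 for Wnt7a, 11.1 for Porcn and 10.5 for Axin2. The 16 members included ligands, the ligand acyltransferase, antagonists, the receptor Fzd3, the negative regulator Nkd2 and the target gene Axin2.

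In OE normal lungs against WT lungs no member was called, beside 0% of all genes. At an unadjusted p under 0.05 there were 2 of 42 members and 1208 of the 14057 genes. The 2 members were Wnt2, with a log2 difference of -0.39 (limma unadjusted p = 0.0453, adjusted p = 0.564), and Nkd1, with -0.55 (SE 0.20, limma unadjusted p = 0.0315, adjusted p = 0.500). The median SE of a log2 difference in this comparison was 0.21, from a spread estimated over all 3 groups. Ezh2 itself differed by 1.53 (SE 0.47) and was not called (limma adjusted p = 0.406). The smallest adjusted p of all genes tested was 0.102. With 2 libraries a group, differences well above the median SE could thus go uncalled, and the lack of calls does not show equal levels. Without tumor 1 the number of all genes called was 302 and that of members 0.

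Genes of the pathway outside the members were read from 5 lists. Of 19 tested genes of the destruction complex and the Dishevelled family, 1 rose and none fell against OE normal lungs (5.26%, beside 38.1% of all genes). Against WT lungs 2 rose and 3 fell (26.3%, beside 38.2% of all genes). The gene called against OE normal lungs was Amer1, a partner of APC. Those called against WT lungs were Tnks and Csnk1g1 (higher) and Csnk1e, Csnk1g2 and Rnf146 (lower). All were named here after their values were seen. The largest of these differences was that of Csnk1e, a casein kinase, at -1.13 against WT lungs. The median log2 difference of the 19 genes against OE normal lungs was 0.01, beside -0.11 over all genes. Of 18 nuclear co-factors, 4 rose and 2 fell in each comparison (33.3% called, near the 38.1% and 38.2% of all genes). Tle4, a Groucho co-repressor, averaged 2.73 ± 0.350 FPKM in OE tumors, 9.02 ± 0.784 FPKM in OE normal lungs and 9.51 ± 0.526 FPKM in WT lungs (SD, n = 3, 2 and 2), and fell by 1.43 (SE 0.14, limma adjusted p = 8.56e-04) against OE normal lungs. Pygo2, a co-activator that reads histone marks, averaged 30.1 ± 2.79 FPKM in OE tumors and 19.0 ± 0.728 FPKM in OE normal lungs and rose by 0.63 (SE 0.12, adjusted p = 0.00805), a call lost without OE normal lung 2 (adjusted p = 0.0623). Ctnnbip1, an inhibitor that binds β-catenin, averaged 7.53 ± 2.24 FPKM in OE tumors, 3.52 ± 0.433 FPKM in OE normal lungs and 3.48 ± 0.305 FPKM in WT lungs, and rose by 0.89 (SE 0.23, adjusted p = 0.0248). That call was lost without either OE normal lung (adjusted p = 0.0870 and 0.143) or either WT lung (0.0532 each). The kinase gene Hipk2 fell by 0.69 (SE 0.18, adjusted p = 0.0248), a call lost when any library other than tumor 1 or tumor 2 was left out (0.0580 to 0.157).

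Among 20 tested genes of Wnt secretion and extracellular modulation, 3 rose and 6 fell against OE normal lungs (45% called). Against WT lungs 2 rose and 6 fell (40% called). These shares were near the 38.1% and 38.2% of all genes. Reck and Gpr124, which together present Wnt7 ligands to the receptor in brain vessels of the mouse, were both lower. Reck averaged 2.18 ± 0.600 FPKM in OE tumors, 11.9 ± 0.890 FPKM in OE normal lungs and 15.9 ± 0.932 FPKM in WT lungs, with a log2 difference of -2.03 (SE 0.18, adjusted p = 6.36e-04) against OE normal lungs. Gpr124 averaged 2.43 ± 1.15 FPKM in OE tumors, 12.1 ± 1.52 FPKM in OE normal lungs and 11.3 ± 0.220 FPKM in WT lungs, with -1.98 (SE 0.27, adjusted p = 0.00256). The Dishevelled-binding genes of the Dact family divided: Dact3 fell by 1.72 (SE 0.24, adjusted p = 0.00300) and Dact2 rose by 1.70 (SE 0.34, adjusted p = 0.0103), and the call of Dact2 was lost without either OE normal lung (adjusted p = 0.0556 and 0.0712).

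Of 18 tested genes of planar cell polarity and alternative receptors, 1 rose and 5 fell against OE normal lungs (33.3% called). Against WT lungs 2 rose and 6 fell (44.4% called). These shares were near the 38.1% and 38.2% of all genes. Prickle2, a cytoplasmic polarity protein, averaged 0.984 ± 0.406 FPKM in OE tumors, 13.5 ± 2.32 FPKM in OE normal lungs and 14.5 ± 1.71 FPKM in WT lungs, and fell by 2.88 (SE 0.21, adjusted p = 3.78e-04) against OE normal lungs. Its paralog Prickle1 fell by 3.23 (SE 0.44, adjusted p = 0.00256), and Daam1, which links Dishevelled to the actin cytoskeleton, by 2.30 (SE 0.32, adjusted p = 0.00279). The receptor-like Ptk7 averaged 29.6 ± 2.66 FPKM in OE tumors, 14.9 ± 2.88 FPKM in OE normal lungs and 14.2 ± 0.708 FPKM in WT lungs, and rose by 0.95 (SE 0.15, adjusted p = 0.00472).

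Of 17 textbook target genes outside the members, 4 rose (23.5%, beside 13.1% and 15% of all genes) and 3 fell (17.6%, beside 24.9% and 23.2%) in each tumor comparison. The median log2 difference of the 17 was 0.35 against OE normal lungs and 0.83 against WT lungs, beside -0.11 and -0.06 over all genes, and 11 and 12 of them were positive. Ccnd1, the G1 cyclin, averaged 163 ± 69.2 FPKM in OE tumors, 53.0 ± 11.2 FPKM in OE normal lungs and 56.3 ± 1.33 FPKM in WT lungs, and rose by 1.51 (SE 0.41, adjusted p = 0.0294) against OE normal lungs. Tnfrsf19 averaged 0.225 ± 0.278 FPKM in OE tumors, 10.1 ± 0.725 FPKM in OE normal lungs and 6.10 ± 2.33 FPKM in WT lungs, and fell by 3.20 (SE 0.27, adjusted p = 5.25e-04). Bambi, a TGF-β pseudoreceptor, rose by 1.65 (SE 0.40, adjusted p = 0.0201) and Ccnd2 fell by 2.20 (SE 0.53, adjusted p = 0.0208). The call of Ccnd1 against OE normal lungs was lost when any library other than tumor 1 was left out (adjusted p = 0.0584 to 0.164), and those of Bambi and Ccnd2 against OE normal lungs when tumor 2, tumor 3 or either OE normal lung was left out (0.0528 to 0.123).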

How the data were processed

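RNA sequencing values of 7 mouse lung libraries were used. The authors deposited 1 FPKM value per gene symbol and library, from TopHat (or TopHat2), Cufflinks 2.0.0 and mm9, per the submitters' processing notes. Annotation, strand setting and library read totals were not given in the sources used here. Of 22474 rows, 27 with a date in place of a symbol were dropped, leaving 22447 genes. Relative read depth, read from the spacing of low values, was 1 to 1.87. Values were transformed to log2(FPKM + 1), and the 14057 genes reaching 1 FPKM in 2 or more libraries entered limma 3.58.1 (R 4.3.3, eBayes with trend, 2-sided, Benjamini-Hochberg adjusted p under 0.05 over all genes, 7 libraries in 3 groups). The procedure was also run on values simulated under its own model, with equal spread in all groups. That run cannot show how it behaves where tumor 1 stands apart from the others. Members and gene lists were chosen with earlier results of these data known. Every member called in a comparison is named with its library values, as are uncalled members with a group mean of at least 5 FPKM. Wnt5a, Wnt7b, Wnt6, Wnt7a, Lgr5, Dkk2 and the genes under the filter were given values or ranges after these were seen. Each pathway list names up to 4 called genes with the largest log2 differences against OE normal lungs, non-overlapping groups and a group mean of at least 5 FPKM. Promoters are RefSeq's on GRCm38.p6. Alternatives were a pseudocount of 0.1, other filters, 3 other scalings, no trend, a block for the replicate number, fits of only the compared groups and omission of each library in turn. Figures used Python 3.11.15 and matplotlib 3.10.9.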

Additional observations from a re-analysis of the deposited data

How the results depend on the processing

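In OE tumors against OE normal lungs the number of members called stayed between 13 and 24 under the alternatives that kept all libraries, and was 11 to 30 with 1 library left out, beside 19. All genes called numbered 5350, and 2877 to 9604 with 1 library left out. Against WT lungs the 20 member calls became 11 with a filter of at least 5 FPKM, which tests fewer members, and 10 to 32 with 1 library left out. All genes called numbered 5371 there, and 2411 to 9429 with 1 library left out. The highest counts came without tumor 1. In OE normal lungs against WT lungs no member was called under any alternative run. All genes called there were 1 with a pseudocount of 0.1, 38 with no filter, 3 with only these groups in the fit, and 0 to 302 with 1 library left out. Where leaving out a library left 1 in its group, that library was assumed to vary like the other groups.

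Whether same-numbered libraries came from the same animal is not stated. Their deviations from their group means had correlations of -0.029 to 0.034. With group means of 2 or 3 libraries this cannot decide it. With the replicate number as a block, 13 and 14 members were called in the tumor comparisons, and the genes called in all were 3130 and 2999, and 1 in OE normal lungs against WT lungs.

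No called difference changed sign. Of the members not called, Porcn turned to -0.73 and -1.02, Wnt5a to -0.69 and -0.63 and Wnt7b to -0.45 (against WT lungs) and were called lower without tumor 1. With 1 library left out, Porcn ranged from -0.73 to 1.19 against OE normal lungs and from -1.02 to 0.90 against WT lungs, Wnt5a from -0.69 to 0.55 and from -0.63 to 0.61, and Wnt7b from -0.45 to 0.89 against WT lungs. Over the single genes and all alternatives, 1615 values kept their direction and side of the threshold or stayed uncalled, 211 lost a call, 37 gained one and 5 changed sign. The calls of Wnt2, Wnt3a, Wnt9a, Wnt10b, Rspo1, Lgr6, Nkd1 and Tcf7 held in both tumor comparisons under every alternative that tested them. All of these except Nkd1 and Tcf7 had passed the filter through the normal lungs alone, so their fall is partly set by the filter. The median log2 difference of all genes against OE normal lungs was -0.11, and 0.05, -0.35 and 0.13 after median-of-ratios scaling, rescaling to TPM and quantile normalization. Against WT lungs it was -0.06, and 0.04, -0.17 and 0.11. Lrp5 and Tcf7l1 lost their calls after rescaling to TPM (adjusted p = 0.115 and 0.116 against OE normal lungs). Members under the filter rest on few reads, and their values were given without a test.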
